A study of Mus musculus with 4 samples.

Results

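Car3 encodes carbonic anhydrase III, and it was the gene with the most allele specific reads in these data. It was chosen by that depth, so its total count is given here as a description with no test. All rows that the count files assign to Car3 were taken. They hold 80 of the 305528 SNPs listed in the series. Of the 80, 10 were exonic, 69 were intronic, and 1 was annotated as 3′UTR but was placed in no exon. By total reads Car3 ranked 1 of 7990 genes with counts at the exonic SNPs that were counted, and it ranked 1 by reads per SNP as well.

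Carbonic anhydrases convert carbon dioxide and water to bicarbonate and a proton. Carbonic anhydrase III is a cytosolic member of the family with weak activity in that reaction, and it is among the most abundant soluble proteins of white adipocytes, with high levels also in slow skeletal muscle fibres. In an F1 animal both parental alleles of a gene sit in the same nuclei, so the number of reads that carry each base at a SNP compares the RNA output of the 2 alleles within the same cells.

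RNA came from the gonadal fat pad of chow-fed F1 mice of C57BL/6J (B) and DBA/2J (D), aged 8 weeks according to the labels, in 4 pools named by cross and sex with the mother's strain first. The study's methods give a later age than the labels. Both male pools and the BxD female pool were made from 3 animals each, the DxB female pool from 2, and every animal was heterozygous at these SNPs by the cross. For 2 pools the label and the file name disagree: the pool called DxB female here is labelled BxD male, and the pool called BxD male is labelled DxB female. Where 4 values are given in order, they stand for BxD female, DxB female, then BxD male, then DxB male. There was 1 pool for each cross and sex, so a pool is the only replicate, and intervals on shares of reads cover counting error only. In bulk RNA, fewer adipocytes and less Car3 RNA per adipocyte cannot be told apart.

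According to GENCODE M1, Car3 (ENSMUSG00000027559.4) has 7 exons on the plus strand at chr3:14863538-14872351 (mm9), a span of 8814 bp. The first counted exonic SNP is a synonymous SNP in exon 6 (156 bp), and the other 9 lie in the 3′UTR of exon 7 (810 bp). The sequences below are the SNPs on which the results turn: the exon 6 SNP where a single pool stood apart, the exon 7 SNPs with the lowest and the highest D to B ratio, the deepest SNP without a listed neighbour in intron 2, an adjacent pair in intron 2, and the SNP past the annotated end. Each is the mm9 plus strand, 5′ to 3′, with the B base of listed SNPs in capitals.
exon 6, T14870113C, chr3:14870099-14870127: gactattggacctaTcacggctccttcac
exon 7 lowest, G14871859T, chr3:14871845-14871873: cttaataaccacctGttctaaaaaaaaat
exon 7 highest, G14872228A, chr3:14872214-14872242: taaaacacacccatGaagccaggtgtttt
intron 2 without neighbour, T14866730G, chr3:14866716-14866744: aagacttgtttcgtTaatgcttgtttcag
intron 2 pair, T14865964C and G14865965A, chr3:14865950-14865978: caatttgcattgggTGtaccttgttatat
past the annotated end, A14872496G, chr3:14872482-14872510: agccaagagcttgcAttgatcacagaaac
In these names the B base stands first, then the mm9 position, then the D base. At all 80 of 80 SNPs the B base listed in the files was the mm9 base.

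Car3 took 7.62% of the reads at counted exonic SNPs in the BxD female pool (324323 of 4254813 reads, 95% Wilson interval 7.60 to 7.65), 9.72% in the DxB female pool (399892 of 4112206), 10.1% in the BxD male pool (418077 of 4157360) and 9.30% in the DxB male pool (311820 of 3353668). The BxD female pool was lowest and the other 3 lay close together, and the Wilson intervals of pools ranked next to each other did not overlap. A read over several SNPs is counted at each, so these intervals are too narrow even for counting error. Over the 4 pools the share was 9.18% ± 1.08 (SD, n = 4), and there is no replicate of a pool against which to test the order. These shares count only reads that overlap a SNP between the strains, so a gene with many or few SNPs is over- or under-counted. Per counted SNP, Car3 had 145411 reads over the 4 pools. The next genes were Lpl, lipoprotein lipase of adipocytes, with 665481 reads at 19 SNPs, Sparc, a matrix protein of stromal cells, with 426098 reads at 7 SNPs, and Hspg2, the basement membrane proteoglycan perlecan, with 288275 reads at 62 SNPs.

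**Figure D1:**
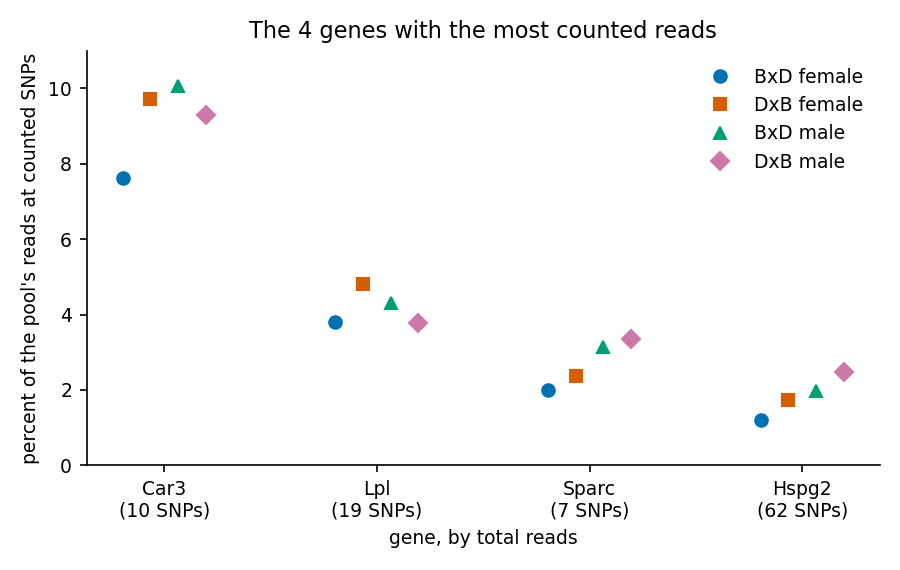
Percent of each pool's reads at counted exonic SNPs (vertical axis) for the 4 genes with the most reads (horizontal axis, with the number of counted SNPs), 1 point per pool. Car3 lies between 7.62% and 10.1%, above Lpl, Sparc and Hspg2 in every pool.

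The tissue's own markers were present: the 4 of 12 adipocyte markers with counted SNPs (Lpl, Cidec, Lep and Slc2a4) took 4.30% to 5.77% of reads. Skeletal muscle is another source of Car3 RNA, and 6 of its 15 markers had counted SNPs. Together these had 316 reads in the BxD female, 238 in the DxB female, 58 in the BxD male and 22 in the DxB male pool. Of the myosin heavy chains of muscle fibres, Myh2, Myh4 and Myh7 were at 0 in the DxB male pool, which allows up to 3 reads each. Myh1 had 1 B read there, and the marker Neb had 8 B and 13 D reads. The Car3 shares were 7.62% in the BxD female, 9.72% in the DxB female, 10.1% in the BxD male and 9.30% in the DxB male pool. Muscle markers such as Acta1, Ckm and Mb had no counted SNPs, and a part of muscle in the Car3 share was not tested. The DxB female pool also had 1811 reads of brown adipocyte markers (Ucp1 and Cidea, 2 of 5 measured) against 159 in the BxD female, 10 in the BxD male and 20 in the DxB male pool. Its share of reads of Cd68, the 1 of 7 macrophage markers measured, was 0.0234%, against 0.0428% to 0.0492% in the others. The DxB male pool had 208 reads of epididymis markers (Adam7, Cst11 and Lcn5, 3 of 5 measured), against 0 in each other pool. Their part in the Car3 results was not tested.

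Summed over the 10 exonic SNPs, the D allele of Car3 gave more reads than the B allele in 3 of the 4 pools. The BxD female pool had 145031 B and 179292 D reads, the DxB female pool 204659 and 195233, the BxD male pool 181562 and 236515, and the DxB male pool 132215 and 179605. The log2 D to B ratios of these raw counts were 0.31, -0.07, 0.38 and 0.44, a mean of 0.27 ± 0.23 (SD, n = 4). The DxB female pool stood on the other side of 0 from the rest.

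In the edgeR quasi-likelihood test across all genes, with alleles of all pools as 8 libraries, the D to B ratio of Car3 was 0.39 on the log2 scale (SE 0.19) with an adjusted p of 0.216 and was not called, where 17.7% of the 7990 genes tested were called (387 with D higher, 1028 with B higher). The alleles of a pool come from the same animals, and with the pool as a block edgeR gave 0.39 (SE 0.085) with an adjusted p of 0.0211. Car3 was then called, as were 27.2% of genes. The blocked call depended on single pools: without the BxD male pool its adjusted p was 0.117 and without the DxB male pool, the one with epididymis reads, 0.0669, while without the DxB female pool it was 0.00104. Scaling each allele library on its own, as here, put the median log2 ratio of all genes at -0.02, against -0.15 with a single library size per pool, a shift of 0.13 that Car3 shares. With that single size, 254 genes were called with D higher and 1218 with B higher, and the Car3 ratio was 0.26 (adjusted p = 0.430).

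The spread between pools rested on the exon 6 SNP, which carried 24.6% of the exonic reads of Car3. Without it, the log2 D to B ratio of the other 9 SNPs was 0.28 in the BxD female, 0.32 in the DxB female, 0.37 in the BxD male and 0.39 in the DxB male pool, all above 0 (mean 0.34 ± 0.049, SD, n = 4). The edgeR estimate was then 0.47 (SE 0.18) with an adjusted p of 0.113, where 1414 of 7990 genes were called. With the pool as a block it was 0.47 (SE 0.021) with an adjusted p of 4.58e-05, where 2181 were called. The SNP was left out after its DxB female value had been seen. The smaller spread and these p-values follow from that choice. An exact sign-flip permutation test over the 4 pools gives p = 0.125 here, two-sided, the smallest value that 4 pools allow.

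The reciprocal crosses allow the parent of origin, the sex and the cross to be compared as well. Car3 passed none of the 3 edgeR tests. The maternal to paternal ratio was -0.06 (log2, SE 0.32, adjusted p = 0.9998), in a test that called 0.0501% of genes. The log2 D to B ratio of male minus that of female pools was 0.34 (SE 0.28, adjusted p = 0.9999), and that of DxB minus that of BxD pools was -0.18 (SE 0.34, adjusted p = 0.9999). In the test by sex 0.0% of genes were called by edgeR and none by DESeq2, with 99 of 7990 at an unadjusted p under 0.05, and in the test by cross 0.1% were called. Without the exon 6 SNP the values were 0.04 for the parent, 0.09 for sex and 0.01 for cross, so each value moved with that SNP. With the pools named by their labels, the sex and cross values changed places and the parental ratio was 0.20.

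The ratio varied among the 10 exonic SNPs. Counts differed widely among them, from 1356 reads at the SNP 8321 bases from the gene's start to 357459 at the exon 6 SNP. The 4 exon 7 SNPs with the highest ratios lay at its 2 ends. At the first exon 7 SNP the log2 D to B ratios of the 4 pools in order were 0.44, 0.42, 0.60 and 0.64. At the last, G14872228A, they were 0.62, 0.72, 0.64 and 0.62, or 60.5%, 62.2%, 60.8% and 60.6% of reads from D.

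**Figure D2:**
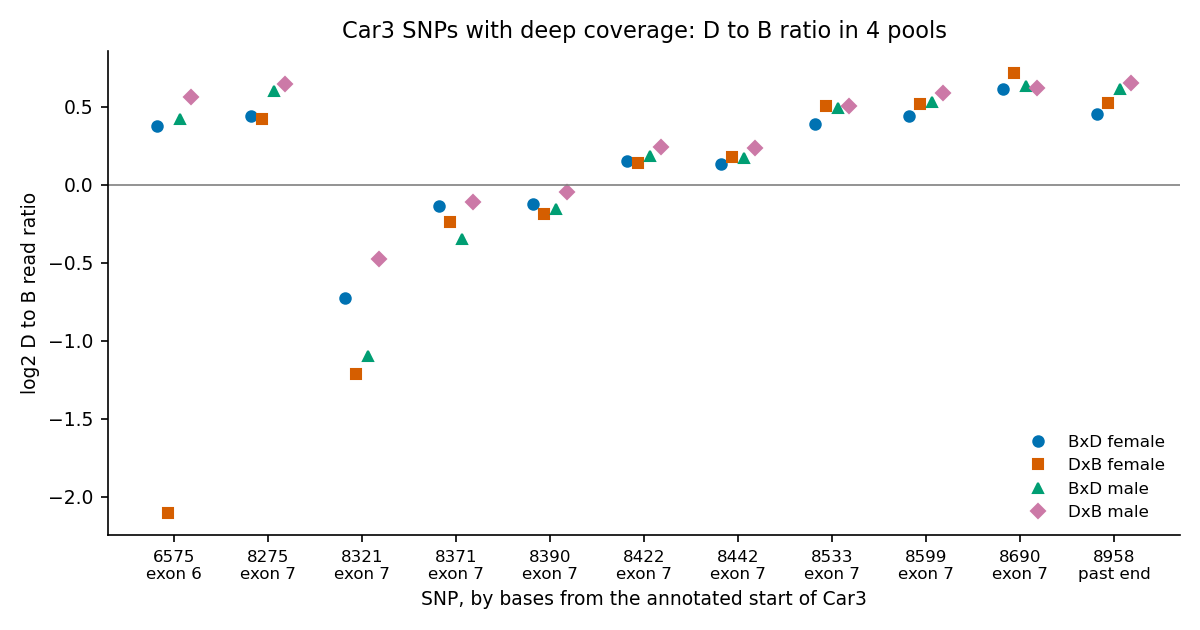
Log2 D to B read ratio (vertical axis) of the 10 exonic Car3 SNPs and the SNP past the annotated end, in order of bases from the annotated start (horizontal axis), with 1 point per pool. The DxB female point of the exon 6 SNP is at -2.11 while its other 3 pools lie between 0.38 and 0.57, and the SNPs 8321 to 8390 bases from the start lie below 0 in every pool.

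Between those ends, 3 neighbouring SNPs had fewer D than B reads in each of the 4 pools. The lowest was G14871859T, where the pools gave -0.73, -1.21, -1.10 and -0.48 in order, from 224 and 135, 260 and 112, 273 and 127, and 131 and 94 B and D reads. The next SNPs, 50 and 69 bp further on, had means of -0.21 and -0.13. Depth also differed here. G14871859T had 1356 reads, the following SNP 14547 and the third 75785, against 166319 at the SNP 46 bp before G14871859T and 37310 at G14872228A. The 29 bases around G14871859T hold a run of 9 A, the longest run of a single base among the windows of the 10 exonic SNPs. Whether depth or sequence has a part in the ratio was not tested.

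For single exonic SNPs edgeR called 3 of 10 in Car3, beside 13.2% of the 49747 SNPs tested. D was higher at 2, T14872137C with a log2 ratio of 0.63 (SE 0.21, adjusted p = 0.0369) and G14872228A with 0.76 (SE 0.21, adjusted p = 0.00999), beside 3.89% of all SNPs. The call of T14872137C was lost with a single library size per pool (adjusted p = 0.113), without the BxD male pool (0.0981) and without the DxB male pool (0.0566), which left 2 of 10 called each time. B was higher at 1, G14871859T with -0.81 (SE 0.20, adjusted p = 0.00298), beside 9.35%. With the pool as a block, 7 of 10 were called, beside 15.4% of all SNPs. D was higher at 6, beside 5.65%, and B at 1, beside 9.74%. The 3 not called with the block were the exon 6 SNP and the SNPs 8371 and 8390 bases from the start. SNPs closer than the 50-base read length share reads and are not independent of each other.

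The ratio of G14871859T also differed from that of all 10 exonic SNPs of Car3 together, by -1.17 on the log2 scale (edgeR diffSpliceDGE, adjusted p = 0.000433). It was the only 1 of the 10 to do so, beside 5.16% of the 41861 SNPs tested. It passed with the pool as a block too, at an adjusted p of 0.000892. The exon 6 SNP differed from all 10 together, itself included, by -0.25 (SE 0.25, adjusted p = 0.820) over the 4 pools, with only 1 pool apart. In the gene fits the ratio was 0.13 from the exon 6 SNP alone and 0.47 without it.

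At the exon 6 SNP the DxB female pool had 59666 B and 13868 D reads. The other pools had more D than B: 36036 and 46846 in the BxD female, 48043 and 64437 in the BxD male, and 35717 and 52846 in the DxB male pool. D reads were thus 18.9% (95% Wilson interval 18.6 to 19.1) in the DxB female pool, against 56.5%, 57.3% and 59.7% in the others. Per D read at the 9 exon 7 SNPs, the exon 6 SNP had 0.0765 D reads in the DxB female pool and 0.354, 0.374 and 0.417 in the others, which is 4.63-fold to 5.45-fold lower. Per B read, the B values were 0.412 in the DxB female pool and 0.331, 0.360 and 0.370 in the others. B thus lay above, and D far below, the range of the other pools.

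**Figure D3:**
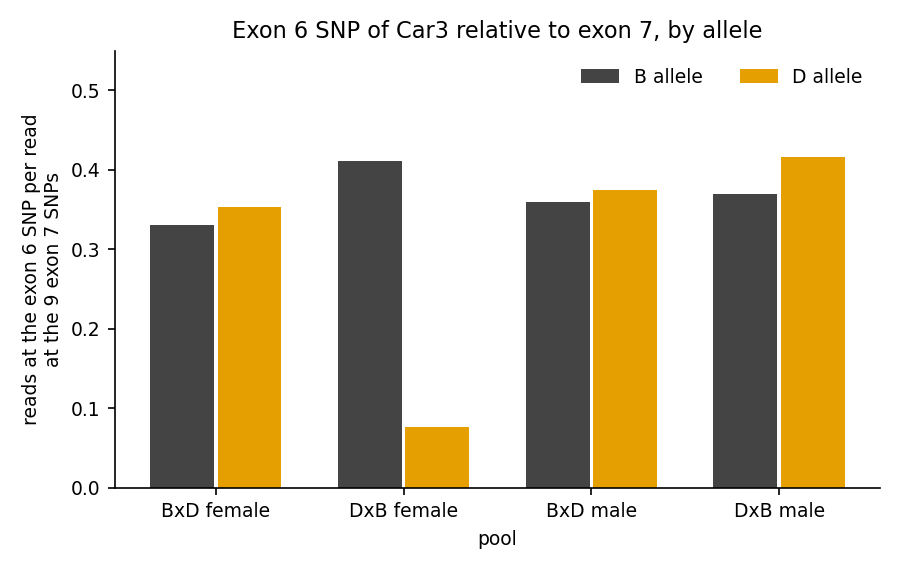
Reads of each allele at the exon 6 SNP per read of the same allele at the 9 exon 7 SNPs (vertical axis) in each pool (horizontal axis). The D bar of the DxB female pool reaches 0.0765 and the other 7 bars lie between 0.331 and 0.417.

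For both alleles together the DxB female pool had 0.225 reads at the exon 6 SNP per read at exon 7, against 0.343, 0.368 and 0.397, so the lower D count was not matched by a B count higher by as much. The nearest listed SNPs are intronic, have few reads and lie more than a 50-base read away. They cannot show whether other exon 6 reads shared the drop. At the intron 6 SNP 170 bp further on, the pools gave -0.11, -0.31, 0.01 and 0.21. The DxB female pool was lowest there, from 107 B and 86 D reads. At the intron 5 SNP 147 bp before, the pools gave -0.42, 0.94, 0.28 and 1.13, the DxB female pool from 17 B and 33 D reads. No other SNP is listed in exon 6. Of the 408 exonic SNPs of the series with at least 1000 reads in each pool, 11 had a pool more than 2 log2 units from the median of the other pools, in 6 genes. At the other 10 of these the D allele had at most 12 reads in any pool, while the Car3 SNP had from 13868 to 64437. The brown adipocyte reads of the DxB female pool and its 2 animals are given above, and neither was tested as a part of this difference.

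Summed over the introns, the ratio went the other way from the sum over exon 7. The 69 intronic SNPs held 22897 reads, 1.46% of all Car3 reads, and whether these came from unspliced RNA was not tested. After SNPs within 18 bp were thinned, the 57 intronic SNPs gave log2 D to B ratios of -1.02 in the BxD female, -0.67 in the DxB female, -0.81 in the BxD male and -0.74 in the DxB male pool, all below 0 where the sums of the 9 exon 7 SNPs were above 0. The intronic ratio differed from that of the gene's exonic and intronic sums together by -1.06 on the log2 scale (edgeR diffSpliceDGE, SE 0.19, adjusted p = 0.00126), beside 4.07% of 9954 intronic or exonic sums called. The comparison was added after the intronic counts were seen. With the pool as a block it was -1.06 (SE 0.11, adjusted p = 3.66e-06).

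The excess of B reads in the introns fell off along the gene. Intron 2 (2355 bp) had the most reads and gave -1.80, -1.65, -1.81 and -1.72 in the 4 pools in order (mean -1.75 ± 0.075, SD, n = 4), from 8431 reads at 22 SNPs. Intron 3 had a mean of -0.66 ± 0.21, intron 4 of -0.50 ± 0.20 and intron 5 of -0.23 ± 0.30. Intron 6 gave 0.20, 0.29, 0.25 and 0.54 (mean 0.32 ± 0.15), above 0 in each pool. Over its 6 SNPs without another listed SNP within 49 bp the values were -0.06, 0.01, -0.04 and 0.33, below 0 in both BxD pools. The values of introns 3, 4 and 5 overlapped, and in the DxB male pool intron 5, at -0.55, lay below intron 4, at -0.45. The values of intron 2 lay below every other intron and those of intron 6 above introns 2 to 5. Intron 1 had 175 reads at 2 SNPs and ranged from -0.72 to 0.52.

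**Figure D4:**
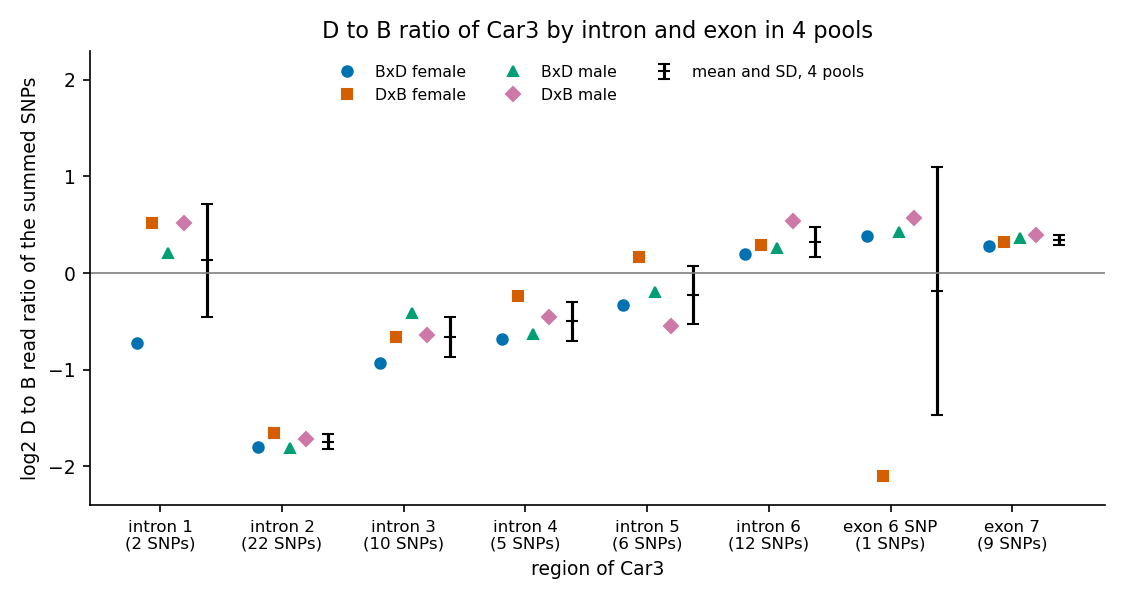
Log2 D to B ratio of summed reads (vertical axis) in each intron of Car3, at the exon 6 SNP and in exon 7 (horizontal axis), with 1 point per pool and the mean with its SD beside them. Intron 2 lies between -1.81 and -1.65 and intron 6 between 0.20 and 0.54.

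Of the 69 intronic SNPs, 38 were called by edgeR, beside 11.6% of 43516 intronic SNPs with at least 10 reads. B was higher at 32, beside 7.36%, of which 28 were among the 30 SNPs of intron 2 and 4 among the 11 of intron 3. D was higher at 6, beside 4.24%, all among the 13 SNPs of intron 6. The adjacent pair in intron 2 had means of -3.30 and -3.62. At the other end of the gene, the SNP T14870740C of intron 6 gave 0.76, 0.93, 1.55 and 1.81. Without the BxD male pool D was higher at 1 SNP in place of 6, and at 4 without the DxB female or the DxB male pool. Counts were modest here, from 29 to 1092 reads per SNP over the 4 pools.

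Across the 69 SNPs the log2 ratio of the summed pools rose with distance from the start of the gene (Spearman's rho = 0.73). Within single pools rho was 0.76, 0.64, 0.69 and 0.64 in the pools in order. These points share their libraries, and nearby SNPs share reads.

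**Figure D5:**
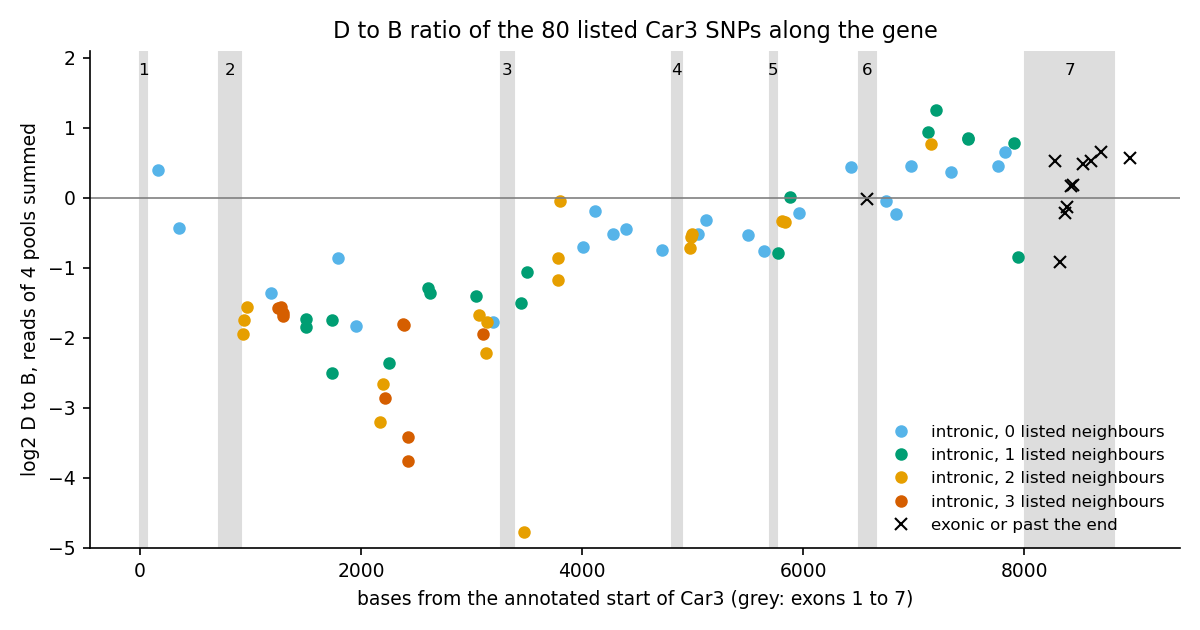
Log2 D to B ratio of each of the 80 listed Car3 SNPs, reads of the 4 pools summed (vertical axis), against bases from the annotated start (horizontal axis), with exons in grey and intronic SNPs coloured by how many other SNPs are listed within 49 bp. Intronic SNPs of intron 2 lie between -3.77 and -0.86 and those of intron 6 between -0.85 and 1.26.

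A read that spans several D bases differs from the mm9 sequence at each of them, and the first alignment by the authors allowed up to 3 mismatches. Reads that it left unmapped were passed to TopHat, and known D variants were masked, according to the methods. The number of other listed SNPs within 49 bp is therefore given beside the ratios. In the whole series the median log2 D to B ratio of intronic SNPs with at least 100 reads was -0.03 without a neighbour, -0.15 with 1, -0.25 with 2 and -0.46 with 3. For the intronic SNPs of Car3, taken with no minimum and from 29 reads up, the medians were -0.43, -1.17, -1.36 and -1.81 from 23, 18, 18 and 10 SNPs. Both fell with the number of neighbours, and at each number Car3 was lower, at these unlike minimum reads. In Car3 the ratio and the number of neighbours had a Spearman's rho of -0.53, and the number of neighbours and the distance from the start one of -0.36.

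From intron 2 on, the rise along the gene was also seen in the means over SNPs without a listed neighbour. In intron 2 the 4 such SNPs gave -1.56, -1.20, -1.76 and -1.59 (mean -1.53 ± 0.23, SD, n = 4), and the deepest of them, T14866730G, gave -1.65, -1.85, -1.96 and -1.56. In intron 3 the mean was -0.52 ± 0.084, in intron 4 -0.45 ± 0.23, in intron 5 0.03 ± 0.48 and in intron 6 0.06 ± 0.18, which is below the 0.34 of exon 7. From intron 3 to intron 6 only the DxB male pool rose at each step (-0.42, -0.37, 0.08 and 0.33). The BxD female pool gave -0.53, -0.59, -0.64 and -0.06, the DxB female -0.63, -0.17, 0.51 and 0.01, and the BxD male -0.51, -0.67, 0.16 and -0.04. Over the 23 SNPs rho with distance was 0.64. Over such SNPs the intronic ratio differed from that of the gene's exonic and intronic sums together by -0.74 (SE 0.21, adjusted p = 0.0448). Variants between the strains that the files do not list were not counted as neighbours.

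Exonic SNPs of Car3 had few listed neighbours. The 4 without any (the exon 6 SNP and the last 3 of exon 7) had a median log2 ratio of 0.50 over the summed pools, the 4 with 1 neighbour a median of -0.02 and the 2 with 2 neighbours one of 0.02. Over exonic SNPs of the series the medians were -0.07, -0.11 and -0.20. The 3 exon 7 SNPs without a neighbour gave means of 0.47 ± 0.056, 0.52 ± 0.062 and 0.65 ± 0.047 (SD, n = 4).

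The SNP 145 bp past the annotated end of Car3 had 94617 reads, more than 4 of the 10 exonic SNPs. Its log2 D to B ratios were 0.46, 0.52, 0.61 and 0.66 in the 4 pools in order (mean 0.56 ± 0.089, SD, n = 4), all above 0. This lay within the range of the last 3 SNPs of exon 7 in every pool except the DxB male, where it was above them. It has no listed neighbour and, being outside the exons of the files, was counted in no exonic sum.

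Other carbonic anhydrases had far fewer counted reads. Of 16 family genes, 7 had counted exonic SNPs, Car3 among them. None was called by edgeR, beside 17.7% of all genes, or by DESeq2, beside 1426 of 7981. At an unadjusted p under 0.05 there were 3 (Car4, Car8 and Car11), beside 2148 of the 7990 genes. With the pool as a block 3 were called, Car3 itself, Car4 and Car11, beside 27.2%. Car4, the membrane-anchored form of capillaries and other cells, had 3324 reads and a log2 D to B ratio of 0.35 (SE 0.14, adjusted p = 0.126, or 0.0108 with the block). Car2, the fast cytosolic form whose gene lies 3′ of Car3 at chr3:14886426-14900769, had 249 reads and 0.50 (SE 0.25, adjusted p = 0.231). Car11, a family member without catalytic activity, had 252 reads and 0.78 (SE 0.29, adjusted p = 0.101, or 0.00994 with the block). The other 3 members had fewer D than B reads. Car8, named after its values were seen, had 95 reads and -1.21 (SE 0.49, adjusted p = 0.128), Car12 had 24 reads and -0.65 (SE 0.84), and Car6 had 2 reads, both of B.

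Among 8 measured genes of bicarbonate and acid transport, none was called by edgeR, DESeq2 or with the block, and none had an unadjusted p under 0.05. Over all genes these were 17.7%, 1426 of 7981, 27.2% and 2148 of 7990. The anion exchanger Slc4a2 had 3961 reads and a log2 D to B ratio of 0.15 (SE 0.10). Among 10 measured enzymes of lipid synthesis and of bicarbonate use, 1 was called by edgeR, beside 17.7% of all genes, with D higher: Acaca, acetyl-CoA carboxylase, with a log2 ratio of 0.81 (SE 0.12, adjusted p = 0.000563). With the block 4 were called, beside 27.2%, each with D higher: Acaca, its relative Acacb (0.15, adjusted p = 0.0309), Pccb of propionyl-CoA carboxylase (0.23, adjusted p = 0.00229) and Pcx, pyruvate carboxylase (0.23, adjusted p = 0.0411). At an unadjusted p under 0.05 there were 2 enzymes, Acaca and Scd2, beside 2148 of the 7990 genes. Scd2 had B higher in each pool, at -0.57 (SE 0.26, adjusted p = 0.182) from 261 reads. The median log2 ratio was 0.35 over the 7 carbonic anhydrases, Car3 and those of few reads included, 0.01 over the transport genes and 0.11 over the enzymes, against -0.02 over all genes tested.

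The genes whose 4 ratios lay nearest to those of Car3, by Euclidean distance among 1813 genes with at least 100 reads of each allele in every pool, were Itgb1bp1 (distance 0.186), Itih5 (0.198), Slc36a2 (0.200), Clk1 (0.201) and Rnf114 (0.201). Itgb1bp1 gave 0.39, 0.06, 0.49 and 0.46 in the 4 pools in order from 196 to 368 reads per allele, with the lowest value in the DxB female pool as in Car3. In Car3 that low value came from the exon 6 SNP.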

How the data were processed

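Allele counts were analysed for 4 RNA pools of F1 gonadal adipose tissue. Per the authors' methods, 50-base mates were treated as single reads and aligned to mm9 with mrsFAST (up to 3 mismatches, D variants masked) and then TopHat (version 1 in the submitters' processing notes, which also name CASAVA). Uniquely mapped reads were kept. The authors deposited raw counts of B and D reads per SNP without normalization, and PCR copies are not said to have been removed, so intervals cover counting error only. Reads per pool at counted SNPs ranged from 3353668 to 4254813. The tissue's pools were taken as replicates. Without a block, p-values rest on the spread of allele libraries within a group, which includes pool differences shared by both alleles. With the pool as a block, those of the strain test rest on the spread of the D to B ratio between pools.

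Pool identity was taken from file names, because gene counts then equalled the study's counts per pool in 99.9% to 99.95% of 1996 genes, against 1.2% for the 2 conflicting pools by label. Exonic SNPs within 18 bp of the last counted SNP of an exon were dropped, which left 44210 SNPs. All 10 exonic SNPs of Car3 stayed. Counts were summed per gene. The study tested alleles as separate libraries without a block, and this was followed with edgeR 4.0.16 (TMM, quasi-likelihood test, Benjamini-Hochberg adjustment over all features, threshold 0.05) in R 4.3.3. Single SNPs were tested without the 18 bp rule, intronic SNPs from 10 reads, and uneven ratios with diffSpliceDGE. Raw log2 ratios add 0.5 to each count. Standard errors are the log2 ratio over the root of F. The pool pairs the 2 alleles by design, and their deviations from strain means correlated across 5719 genes (r = 0.622 for BxD female, 0.607 for DxB female, 0.226 for BxD male and 0.146 for DxB male). Alternatives were DESeq2 1.42.0, a single library size per pool, minimum counts, other SNP sets, the pool as a block, label identity and each pool left out. The removal of the exon 6 SNP and all intronic tests were added after seeing the data. Scripts were tested on simulated data. Sequences came from NCBIM37 (mm9) and GENCODE M1, and tables and figures were made with pandas 2.3.3, scipy 1.17.1 and matplotlib 3.10.9 in Python 3.11.15. The gene and all lists were chosen with earlier results of these data known. Beside Car3, genes were to be named as the next 3 by reads, the 5 nearest by their 4 ratios, and at most 4 per list, those with the most reads. The enzymes given values depart from this: they are the 4 called with the block and Scd2. Neither Acaca nor Scd2 is among the 4 with the most reads. Car6, Car8 and Car12 were likewise given outside the rule. Some items that this rule or the choice of sequences would name are not reported here.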

Additional observations from a re-analysis of the deposited data

Results flagged for a closer look

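Of 23 Car3 quantities checked over the 4 pools, 2 had a pool whose gap to the nearest other pool, divided by the range, exceeded Dixon's 95% critical value for 4 samples. Chance gives about 1 in 20 per quantity. At the exon 6 SNP the DxB female pool had a log2 D to B ratio of -2.11, with a gap of 0.930 of the range. At the SNP A14872071G of exon 7 the BxD female pool had 0.39, with a gap of 0.877, while the other 3 pools lay between 0.49 and 0.51.

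The SNP past the annotated end of Car3 lies outside every exonic sum and held 94617 reads of both alleles, which flagged it as a signal in rows the gene comparisons did not use. No cause was tested for any of these.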

How the results depend on the processing

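The D to B ratio of Car3 was above 0 under every alternative run. With the pool as a block (replicate block) it was called, at 0.39, and also with the block and without the exon 6 SNP, at 0.47. That SNP was left out after its values had been seen. The blocked ratio was 0.38 without the BxD female pool and 0.50 without the DxB female pool, both called, and 0.35 and 0.34 without the BxD male and DxB male pools, not called. Leaving out each pool in turn without the block gave 0.33 to 0.51. The maternal to paternal ratio changed sign to 0.045 without the exon 6 SNP and to 0.20 by label identity, and ranged from -0.28 to 0.11 with pools left out. The sex difference was -0.18 by label identity and 0.12 to 0.49 with pools left out. The cross difference became 0.013 without the exon 6 SNP and 0.34 by label identity, and ranged from -0.41 to 0.092 with pools left out (0.092 without the DxB female pool). Fits without a pool leave an arm with 1 pool, which is then assumed to vary like the others. None of these passed the threshold.

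The number of exonic SNPs called, 3, was 7 with the pool as a block, 5 with DESeq2, 2 with a single library size per pool, and 2 to 5 with pools left out (5 without the BxD female or the DxB female pool). Over all exonic SNPs, 6585 of 49747 were called in the main fit and 7656 with the block. DESeq2 called 5229 of 49727, and a single library size 6805 of 49747. With pools left out, 5222 to 5865 were called, of 48559 to 48959 tested. The exon 6 SNP ratio, 0.11, was -0.019 with the block, and with pools left out it ranged from -0.13 to 0.57, at -0.06 without the BxD male pool and -0.13 without the DxB male pool. With SNPs at least 50 bp apart, 0 SNPs differed from the ratio of the gene's SNPs together, because G14871859T is dropped there. The intronic difference ranged from -1.22 to -0.99 and the called intronic SNPs from 32 to 36 with pools left out, of which D was higher at 1 to 5. Over all intronic SNPs these fits called 3024 to 3729, of 30634 to 36581 tested. The share of reads was 7.07% without the exon 6 SNP. Per SNP, Car3 had on average 406 times the reads of the mean counted SNP. With the block the genes called rose from 1415 to 2175, and Car4, Car11, Acacb, Pccb, Pcx, Lpl, Sparc, Cidec and Ucp1 were among those that gained a call, while the maternal, sex and cross ratios of Car3 did not. The cause of these changes was not tested.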
